A study of Mus musculus with 11 samples.

Results

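The genes described here are 8 surface molecules with which blood stem cells and leukaemic cells hold on to the marrow. They are the integrin chains Itga4, Itga5, Itga6, Itgb1, Itgal and Itgb2, the hyaluronan receptor Cd44 and the selectin ligand Selplg. They were chosen by gene symbol, for their part in marrow retention, and are 8 of the 53700 genes in the deposited count table. All 8 were among the 16639 genes tested. The 11 bulk RNA-seq libraries come from sorted short-term haematopoietic stem cells (ST-HSC) of mouse bone marrow, on the C57BL/6j background. Every host had received Flt3-ITD Tet2 KO acute myeloid leukaemia (AML) marrow, so the controls carry the leukaemia too. The hosts were Cxcl12 KO (titled Cre_pos) or Cxcl12 WT (titled Cre_neg), and were given cytarabine, doxorubicin and quizartinib together or vehicle. The libraries are 3 KO treated (257, 263 and 276), 3 WT treated (252, 262 and 266), 2 KO vehicle (249 and 275) and 3 WT vehicle (240, 253 and 265). Cytarabine and doxorubicin are cytotoxic drugs and quizartinib inhibits the FLT3 kinase. The Cre driver, the sort gate, the age of the hosts and whether the sorted cells were of donor or host origin are not given in the sources used here.

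CXCL12 is a chemokine that stromal cells of the marrow release and that draws stem and progenitor cells through the receptor CXCR4. Chemokine signals switch integrins from a low- to a high-affinity state, so cell adhesion depends on activation as well as on how much receptor is made. The alpha 4 and alpha 5 chains pair with beta 1 to form VLA-4, which binds VCAM-1 and fibronectin, and VLA-5, which binds fibronectin. The alpha 6 chain pairs with beta 1 to bind laminins. The alpha L and beta 2 chains form LFA-1, which binds ICAM molecules. CD44 binds hyaluronan and selectins, and the product of Selplg, PSGL-1, is the main ligand of P-selectin. RNA levels say nothing of activation or of surface protein.

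RefSeq promoters on GRCm38.p6 matched 4 of the 8 genes (Itga4, Itga5, Itgb1 and Cd44). Those of the beta 1 chain and of 2 alpha chains that share it are shown, because the levels of these alpha chains differed to unlike extents across the libraries. Each run is the 250 bases before the start site, 5′ to 3′ on the strand of the gene. Capitals mark GGGCGG, a Sp1/KLF motif, or TGTGGT, a RUNX motif, on either strand. The windows are chr2:79255176-79255425 (plus strand) for Itga4, chr15:103366792-103367041 (minus strand) for Itga5 and chr8:128685404-128685653 (plus strand) for Itgb1.
Itga4: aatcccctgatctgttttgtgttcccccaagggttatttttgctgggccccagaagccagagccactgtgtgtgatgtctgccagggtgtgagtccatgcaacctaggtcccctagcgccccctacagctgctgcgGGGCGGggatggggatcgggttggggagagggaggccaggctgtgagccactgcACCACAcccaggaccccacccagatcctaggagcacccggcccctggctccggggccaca
Itga5: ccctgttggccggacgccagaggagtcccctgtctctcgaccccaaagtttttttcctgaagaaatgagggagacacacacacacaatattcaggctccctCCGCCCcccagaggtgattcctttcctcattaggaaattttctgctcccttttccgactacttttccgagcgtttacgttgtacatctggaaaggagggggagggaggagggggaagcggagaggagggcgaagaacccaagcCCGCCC
Itgb1: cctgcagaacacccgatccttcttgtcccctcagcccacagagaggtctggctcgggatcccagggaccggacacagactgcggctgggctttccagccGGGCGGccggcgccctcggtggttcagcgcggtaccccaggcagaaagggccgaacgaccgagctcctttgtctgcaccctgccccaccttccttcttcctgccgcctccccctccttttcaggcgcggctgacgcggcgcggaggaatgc
Itga5 held GGGCGG 2 times, beginning 149 and 6 bases before the start, while Itga4 and Itgb1 held it 1 time each, 114 and 151 bases before it. TGTGGT was present in Itga4 alone of the 4, as ACCACA 60 bases before the start. The motifs CCGGAA (ETS) and TGANTCA (AP-1) were in none of the 4, and the Cd44 window held none of the 4 motifs searched. Over all 32851 promoters in the table, 32.7% held GGGCGG, 14.0% TGTGGT and 6.75% TGANTCA, and 3952 held CCGGAA. The motifs do not overlap in these windows, and whether they bear on the levels of these genes was not tested. The GC content was 64.0% for Itga4, 55.6% for Itga5, 68.0% for Itgb1 and 56.4% for Cd44.

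Libraries held 8.13 to 31.1 M gene counts each. No library count of any of the 8 genes was below 68, so counting error is small beside the spread between libraries. Cxcl12 itself was at 0 to 5.36 CPM in KO libraries and 0 to 14.4 CPM in WT libraries, and its level in sorted blood cells does not check the genotype of the stroma. Stem and progenitor markers were present (12 genes, summed to 535 to 1728 CPM per library), although Slamf1 was at 0 in all 3 WT vehicle libraries. Granulocyte markers stood far above them in every library (12 genes, 10580 to 154500 CPM). On the first principal components, WT vehicle libraries 253 and 265 stood apart from the rest. They also had the fewest genes detected, 13589 and 14206, against 17207 or more in the other libraries, and 265 had the fewest gene counts (8.13 M). KO treated library 257 correlated more closely with WT treated libraries 252 and 262 (r = 0.928 and 0.926 across genes) than with its own group (r = 0.897 with 263 and 0.868 with 276). Its erythroid marker sum of 22950 CPM lay within the range of its own group. Library 257 also had the largest share of reads not assigned to a gene, 62.8%, against 24.3% to 59.3% in the other libraries. The main values that rest on 257, 253 or 265 are also given without them. The labels do not state that each library is a different mouse, and p-values here reflect only how far these libraries vary. In bulk samples, fewer cells of a type and less RNA per cell cannot be told apart.

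Compared per length, as CPM (read counts scaled to library size by TMM) per kb of exon, Selplg was the highest of the 8 genes. It averaged 105 CPM per kb over the 11 libraries and ranked first in 10 of them, with Itgb2 first in the other. Itgb2 averaged 56.4, Itgb1 38.4 and Cd44 21.6 CPM per kb. The alpha chains were lower, with Itgal at 9.32, Itga6 at 5.46, Itga5 at 4.23 and Itga4 at 3.81 CPM per kb. Itga4 ranked last in 6 libraries and Itga5 in the other 5. Both beta chains thus had more RNA per length than their alpha partners in every library. The spread between libraries was unlike among the genes. The highest library exceeded the lowest by 16.6-fold for Itgb2, 12.2-fold for Itga5, 6.08-fold for Itgal, 5.65-fold for Itga6, 4.44-fold for Itgb1, 3.45-fold for Itga4, 3.13-fold for Cd44 and 2.69-fold for Selplg.

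**Figure D1:**
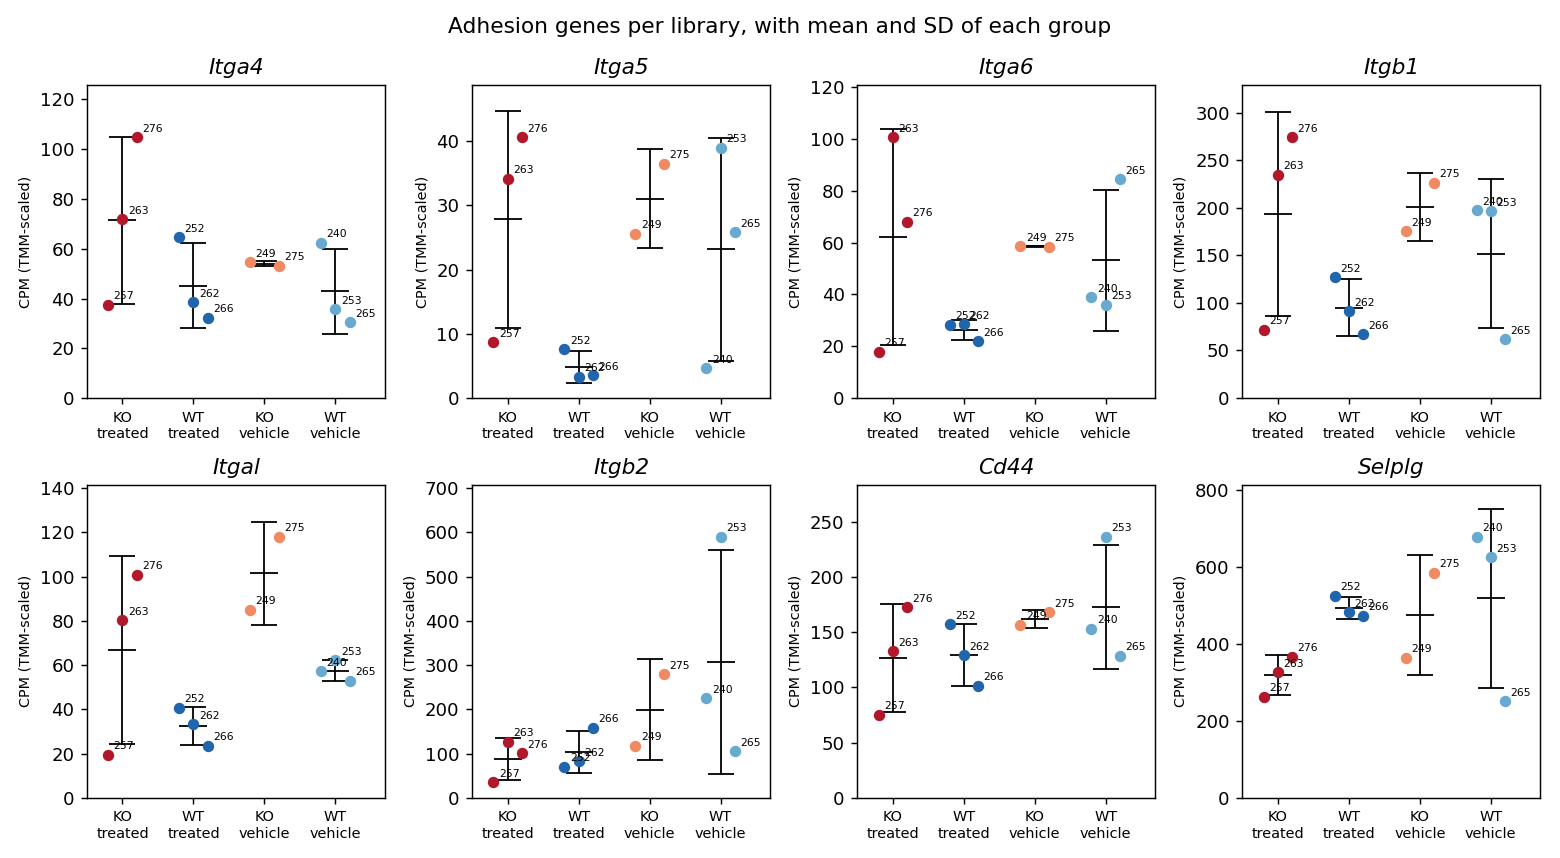
TMM-scaled CPM of each of the 8 genes by group, 1 point per library with its number, and the mean with its SD as bars. Itga5 was at 8.69 CPM or more in all KO treated libraries and at 7.64 CPM or less in all WT treated libraries, while Selplg was at 366 CPM or less in KO treated and at 473 CPM or more in WT treated libraries.

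Itga5, the fibronectin-binding chain of VLA-5, differed most between the treated groups. It stood at 8.69, 34.2 and 40.6 CPM in KO treated libraries 257, 263 and 276, against 7.64, 3.34 and 3.51 CPM in WT treated libraries 252, 262 and 266. The vehicle libraries had 25.6 and 36.5 CPM (KO, 249 and 275) and 4.65, 39.0 and 25.9 CPM (WT, 240, 253 and 265). All KO treated libraries were above all WT treated ones, but 257 by little, and 1 WT vehicle library was as low as the WT treated group. The group means were 27.8 ± 16.9, 4.83 ± 2.44, 31.1 ± 7.71 and 23.2 ± 17.3 CPM for KO treated, WT treated, KO vehicle and WT vehicle (SD, n = 3, 3, 2 and 3).

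Itga4, the alpha chain of VLA-4, varied less. Its CPM was 37.6, 71.8 and 105 in KO treated libraries, 64.6, 38.6 and 32.3 in WT treated, 54.6 and 53.2 in KO vehicle and 62.5, 35.8 and 30.4 in WT vehicle libraries. The 4 groups overlapped, with means of 71.4 ± 33.7, 45.2 ± 17.2, 53.9 ± 0.989 and 42.9 ± 17.2 CPM. In the annotation used for lengths, exons of Cerkl cover 8.04% of the exon bases of Itga4. The kits do not keep strand, so reads there may be set aside or counted for either gene. No exon base of the other 7 genes is covered by another gene.

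Itga6, the laminin-binding partner of beta 1, had 17.8, 101 and 68.1 CPM in KO treated libraries and 28.3, 28.5 and 22.0 CPM in WT treated libraries. The KO vehicle libraries were at 58.6 and 58.5 CPM and the WT vehicle libraries at 39.0, 36.1 and 84.6 CPM. Library 257 was the lowest of all 11 and 263 the highest, though both are KO treated. Every WT treated library was below every vehicle library of either genotype.

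Itgb1, the shared beta 1 chain, stood at 71.7, 235 and 274 CPM in KO treated libraries, against 127, 91.1 and 66.9 CPM in WT treated libraries. It was at 176 and 226 CPM in KO vehicle and at 197, 197 and 61.8 CPM in WT vehicle libraries. KO treated libraries 263 and 276 were above all others, and WT vehicle library 265 was the lowest. Per length, the ratio of Itga5 to Itgb1 was 0.100, 0.120 and 0.123 in KO treated libraries, against 0.0498, 0.0303 and 0.0434 in WT treated libraries. Those groups were apart in this ratio, which scaling between libraries does not touch. Library 257 was close to the rest of its group in it. The KO vehicle ratios were 0.121 and 0.133, while the WT vehicle ratios ran from 0.0195 to 0.346. In the ratios of Itga4 to Itgb1, of Itga6 to Itgb1 and of Itgal to Itgb2, the treated groups overlapped. How many gene pairs stand apart in this way was not counted.

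Itgal, the alpha chain of LFA-1, had 19.4, 80.3 and 101 CPM in KO treated libraries and 40.7, 33.2 and 23.6 CPM in WT treated libraries. It was at 85.0 and 118 CPM in KO vehicle libraries and at 57.2, 62.3 and 53.0 CPM in WT vehicle libraries. Both KO vehicle libraries were above all WT vehicle libraries, and all WT treated libraries were below all WT vehicle libraries. Its partner Itgb2, the beta 2 chain, gave another order. Its CPM was 35.5, 127 and 101 in KO treated libraries, 70.3, 83.0 and 158 in WT treated, 118 and 280 in KO vehicle and 225, 590 and 106 in WT vehicle libraries. Its WT vehicle mean of 307 ± 252 CPM (SD, n = 3) rests largely on library 253, the other 2 being at 225 and 106 CPM.

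Cd44 stayed within a narrow range, at 75.5, 133 and 173 CPM in KO treated libraries and 158, 129 and 102 CPM in WT treated libraries. The vehicle libraries had 157 and 168 CPM (KO) and 153, 237 and 129 CPM (WT). The 4 groups overlapped. Selplg was at 263, 326 and 366 CPM in KO treated libraries, against 525, 481 and 473 CPM in WT treated libraries. It was at 364 and 584 CPM in KO vehicle and at 677, 625 and 251 CPM in WT vehicle libraries. The treated groups were apart for Selplg, with the KO libraries lower, the opposite of Itga5.

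Whether loss of host Cxcl12 goes with other adhesion gene levels under treatment is asked by KO treated against WT treated. By edgeR's quasi-likelihood test with Benjamini-Hochberg adjustment over all genes, 0 of the 8 genes were called at an adjusted p under 0.05, against 0% of all 16639 genes. An unadjusted p under 0.05 was reached by 2 of 8, Itga5 and Itga6, against 10.6% of all genes. Itga5 had a log2 fold change of 2.52 ± 0.79 (SE; edgeR adjusted p = 0.405), a fold of 5.75. The other positive log2 fold changes were 1.24 ± 0.54 for Itga6, 1.04 ± 0.49 for Itgal, 1.03 ± 0.53 for Itgb1 and 0.66 ± 0.44 for Itga4, with edgeR adjusted p of 0.459 to 0.638. Selplg had -0.63 ± 0.37 (edgeR adjusted p = 0.582), Itgb2 -0.24 ± 0.64 and Cd44 -0.03 ± 0.36. Without KO treated library 276, the values were 2.08 for Itga5, 0.62 for Itgb1, 0.54 for Itgal and 0.23 for Itga4, and without 263 that of Itga6 was 0.71. The signs of Itgb2 and Cd44 turned in some of the 14 alternative settings, and those of the other 6 genes did not. The groups did not overlap for 1 gene that was higher, Itga5, against 9.71% of all genes, and for 1 that was lower, Selplg, against 9.56%. The median log2 fold change was 0.84 over the 8 genes and 0.10 over all genes tested.

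The calls in this comparison turned on the tool and on library 257. DESeq2's Wald test called 1 of the 8, Itga5 (adjusted p = 0.0389), against 3.15% of the genes it gave an adjusted p. Limma voom with quality weights called 5 of the 8, Itga4, Itga5, Itga6, Itgb1 and Itgal (adjusted p of 0.0499 to 0.00271), against 26.3% of all genes. Without library 257, edgeR called Itga5 (2.95, adjusted p = 0.041), Itga6 (1.68, adjusted p = 0.0263) and Itgal (1.47, adjusted p = 0.0141), all higher in KO, against 9.26% of all genes. The alpha chains of VLA-5, of the laminin receptor and of LFA-1 were thus past the threshold when 2 KO treated libraries were set against 3 WT treated ones.

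Transcript length moved with these values. Within each library, Spearman's rho between exon length and the gene's level relative to the mean of all libraries was -0.21, 0.28 and 0.32 in KO treated libraries 257, 263 and 276, against -0.30, -0.37 and -0.28 in WT treated libraries. It was 0.23 and 0.21 in KO vehicle and 0.06 to 0.09 in WT vehicle libraries. Library 257 thus resembled the WT treated group in this measure. Across the 11 libraries, Pearson's r between a gene's log2 CPM and this rho was 0.88 for Itgal, 0.84 for Itga6, 0.83 for Itga5 and 0.73 for Itgb1. It was 0.53 for Itga4, 0.48 for Cd44, 0.39 for Itgb2 and -0.13 for Selplg. These r values are descriptions over libraries that share the 4 groups. With the length trend removed, the KO over WT treated log2 fold change was 2.115 for Itga5, 0.79 for Itgb1, 0.59 for Itga6, 0.50 for Itgal and 0.10 for Itga4, and -0.87 for Selplg. The median over the 8 genes was then 0.30, against 0.03 over all genes. Without 257 and with the trend removed, a setting added after the data were seen, 0 of the 8 genes and 27 of all genes (0.165%) were called, with Itga5 at 2.49 (edgeR adjusted p = 0.196) and Itgal at 0.87 (edgeR adjusted p = 0.236).

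**Figure D2:**
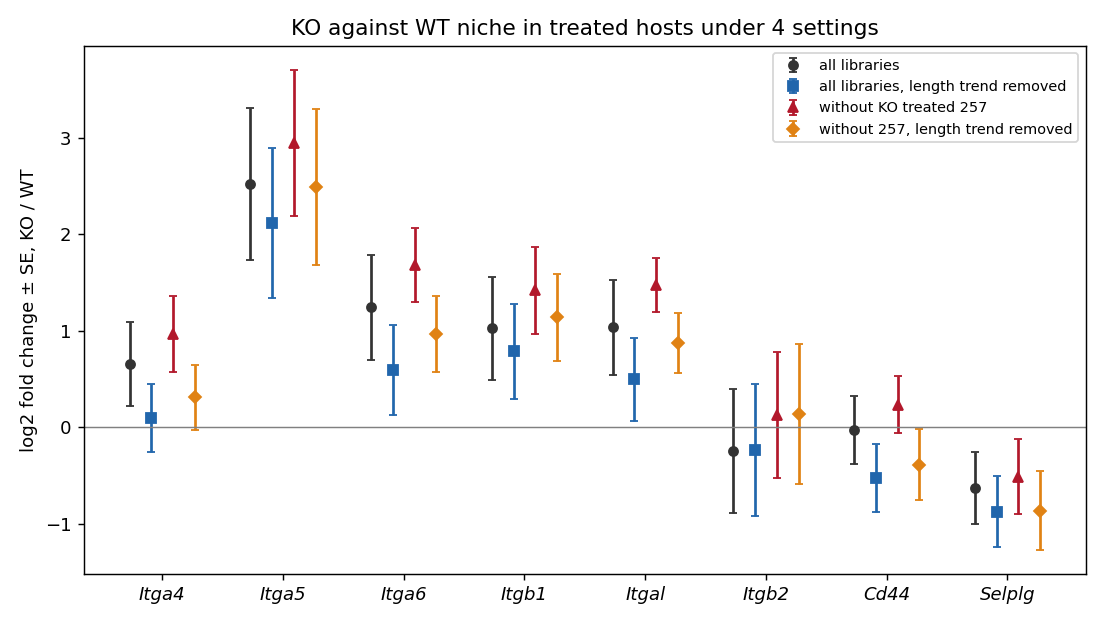
Log2 fold change of KO treated over WT treated hosts, with its SE as bars, for each of the 8 genes with all libraries, with the length trend removed, without library 257, and without 257 and with the trend removed. Itga5 stood at 2.52, 2.115, 2.95 and 2.49 in these 4 settings, and Itga4 at 0.10 with all libraries and the trend removed.

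**Figure D3:**
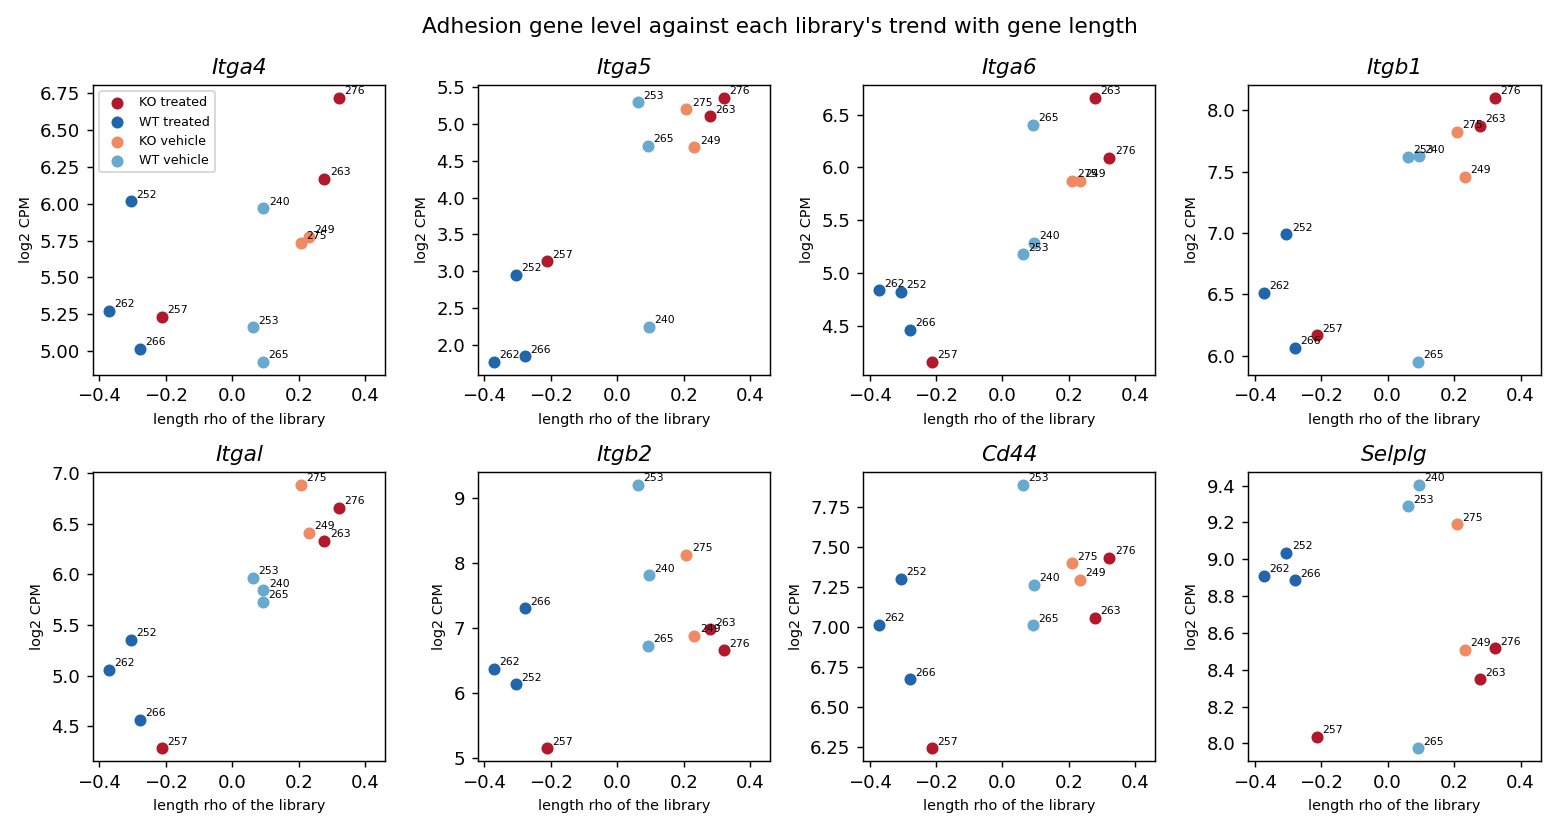
Log2 CPM of each gene in each library against that library's rho between exon length and relative level, coloured by group. Itgal, Itga6 and Itga5 followed this rho most closely (r = 0.88, 0.84 and 0.83, n = 11 libraries) and Selplg least (r = -0.13).

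Markers of other cells moved between the treated groups as well. At an unadjusted p under 0.05, 7.13% of all genes were higher in KO treated libraries and 3.5% lower. All 10 erythroid markers were higher in KO treated libraries at an unadjusted p under 0.05, with sums of 10890 to 53520 CPM, against 169 to 366 CPM in WT treated libraries, and none was at 0 in any library. Granulocyte markers were lower for 7 of 12 at that p, with sums of 10580 to 34750 CPM for KO treated and 31010 to 154500 CPM for WT treated libraries, also with none at 0. Stroma and endothelium markers were higher for 1 of 7 tested at that p, with sums of 46.6 to 90.9 CPM for KO treated and 30.9 to 45.5 CPM for WT treated libraries. That sum was mostly Pecam1, and Cdh5 and Lepr, an endothelial and a stromal marker, were at 0 in KO treated library 263 and WT treated library 266. Monocyte sums were 551 to 2382 CPM for KO treated and 3256 to 4364 CPM for WT treated libraries. Of the 8 monocyte markers, 3 were higher in KO treated and 5 lower, with 1 higher and 1 lower at an unadjusted p under 0.05. B cell sums were 38.1 to 66.4 and 72.4 to 123 CPM, T and NK cell sums 291 to 1223 and 979 to 1701 CPM, and megakaryocyte sums 52.9 to 68.6 and 42.9 to 48.1 CPM, KO treated before WT treated in each. The T and NK cell sums do not stand for their list, in which 5 of 7 markers were higher in KO treated and 2 lower. At an unadjusted p under 0.05, 0 of these 7 were higher and 0 lower. Among the 8 genes, Itga5 had the highest r with the stroma and endothelium sum (0.87) and Itga4 with the erythroid sum (0.59), over 11 libraries. Itgal had 0.85 with the stroma and endothelium sum. Itga5 also had -0.84 with the B cell sum and Itga4 -0.71 with the granulocyte sum, so r does not single out 1 cell type. The part of transcript length, library 257 and these markers in the differences was not tested.

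With vehicle, KO against WT asks about the same host genotype without the drugs. By edgeR, 0 of the 8 genes were called, against 0% of all genes, and 0 of 8 had an unadjusted p under 0.05, against 6.78% of all genes. DESeq2 called 0 of the 8, against 1.59% of the genes it gave an adjusted p, and limma voom 0, against 0%. The largest log2 fold change was that of Itgal, at 0.82 ± 0.54 (SE; edgeR adjusted p = 0.807), and Itgal was the 1 gene whose groups did not overlap, higher in KO, against 13.2% of all genes. It kept its sign in all 13 alternatives. Itga5 had 0.42 ± 0.83, Itgb1 0.40 ± 0.58, Itga4 0.33 ± 0.48 and Itga6 0.14 ± 0.60, while Itgb2 had -0.62 ± 0.73, Selplg -0.13 ± 0.42 and Cd44 -0.09 ± 0.40. Each of these 7 had the other sign in at least 1 alternative. Without WT vehicle libraries 253 and 265, Itga5 was at 2.85, since 240 alone was then left to stand for WT vehicle. Erythroid marker sums were 341 and 8417 CPM in KO vehicle and 129 to 630 CPM in WT vehicle libraries. Of these markers, 7 of 10 were higher in KO at an unadjusted p under 0.05, beside 4.8% of all genes. At that p, 3 of 6 megakaryocyte, 4 of 7 T and NK cell and 2 of 7 stroma and endothelium markers were higher. The stem and progenitor list gave 1 of 12 higher, granulocyte, monocyte and B cell lists gave 0, and no list gave any lower. Kdr, Col1a1 and Col1a2 were highest of all libraries in KO vehicle library 275. The megakaryocyte sum of 275 was 673 CPM, against 24.4 to 68.6 CPM in the other 10 libraries, and 275 also had the highest Itgal. Without 275 the log2 fold change of Itgal was 0.58. The part of these markers was not tested.

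Treated against vehicle in WT hosts asks how the sorted cells differed under the drugs. By edgeR, 0 of the 8 genes were called, against 0% of all genes, and 2 of 8, Itga5 and Itgb2, had an unadjusted p under 0.05, against 18.2% of all genes. DESeq2 called 1, Itga5 (adjusted p = 0.0383, lower in treated), against 7.84% of the genes it gave an adjusted p, and limma voom called 0, against 0%. The log2 fold change was -2.26 ± 0.78 for Itga5 (SE; edgeR adjusted p = 0.191) and -1.56 ± 0.65 for Itgb2 (edgeR adjusted p = 0.244). Itga6 had -1.02 ± 0.54, Itgal -0.82 ± 0.49, Itgb1 -0.68 ± 0.53, Cd44 -0.42 ± 0.36, Selplg -0.07 ± 0.37 and Itga4 0.07 ± 0.43. The groups did not overlap for 2 genes, Itga6 and Itgal, both lower in treated, against 10.1% of all genes. The median was -0.75 over the 8 genes and 0.09 over all genes tested. Itga5 rested on libraries 253 and 265: without both it had 0.16, since 240, at 4.65 CPM, was within the range of the WT treated libraries. Itgb2 rested on 253, with -0.67 without it (edgeR adjusted p = 0.568), and Itga6 on 265, with -0.50 without it. Cd44 was at -0.13 without 253. Itga6, Itgb1, Itgal, Itgb2 and Cd44 kept a negative sign in all 14 alternatives.

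Between WT treated and WT vehicle libraries, other measures were apart as well. The rho with exon length was -0.37 to -0.28 in WT treated libraries and 0.06 to 0.09 in WT vehicle libraries. With the length trend removed, the log2 fold change was -2.45 for Itga5, -0.93 for Itga6, -0.83 for Itgal and -2.10 for Itgb2, beside a median of -0.27 over all genes. Stroma and endothelium marker sums were 30.9 to 45.5 CPM in WT treated libraries, against 58.6 to 82.3 CPM in WT vehicle libraries, with 1 of 7 markers tested lower at an unadjusted p under 0.05. That marker was Pecam1, with a log2 fold change of -1.16 ± 0.42 (SE). Whatever their p, 4 of the 7 were higher in treated and 3 lower, so the sum does not stand for the list. T and NK cell sums were 979 to 1701 CPM in WT treated libraries, against 450 to 705 CPM in WT vehicle, with 2 of 7 markers higher at that p. B cell sums were 72.4 to 123 CPM in WT treated libraries, against 52.2 to 58.4 CPM in WT vehicle, with 1 of 7 higher. Over all genes, 10.1% were higher and 8.11% lower at that p, and 1 of 7 is not far from those shares. The T cell marker Cd3e was at 0 in all 3 WT vehicle libraries and in 2 of the 3 WT treated ones. The part of these measures in the values of the 8 genes was not tested.

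In KO hosts, treated against vehicle gave 0 of 8 calls by edgeR, DESeq2 and limma voom alike, against 0%, 0.143% and 0% of the genes tested by each. There were 0 of 8 at an unadjusted p under 0.05, against 3.68% of all genes, and no gene's groups were apart, against 22.4% of all genes. Itgb2 had the largest log2 fold change, -1.18 ± 0.70 (SE), followed by Itgal at -0.60 ± 0.54, Selplg at -0.57 ± 0.41 and Cd44 at -0.36 ± 0.39, and these 4 kept their sign in all 13 alternatives. Itga4 had 0.41 ± 0.49, Itga5 -0.16 ± 0.83, Itga6 0.09 ± 0.60 and Itgb1 -0.05 ± 0.59. All edgeR adjusted p were 1. Itgb2 rested on KO vehicle library 275, with -0.49 without it, and Itgal and Cd44 on 257, with -0.17 and -0.09 without it. Selplg was at -0.23 without 275. Erythroid marker sums were 10890 to 53520 CPM in KO treated libraries, against 341 and 8417 CPM in KO vehicle, with 0 of 10 markers at an unadjusted p under 0.05. Granulocyte sums were 10580 to 34750 CPM in KO treated libraries, against 39010 and 61660 CPM in KO vehicle. Of these markers, 1 of 12 was lower at that p, beside 0.974% of all genes. None of these markers was at 0 in any library, and their part in the values was not tested.

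**Figure D4:**
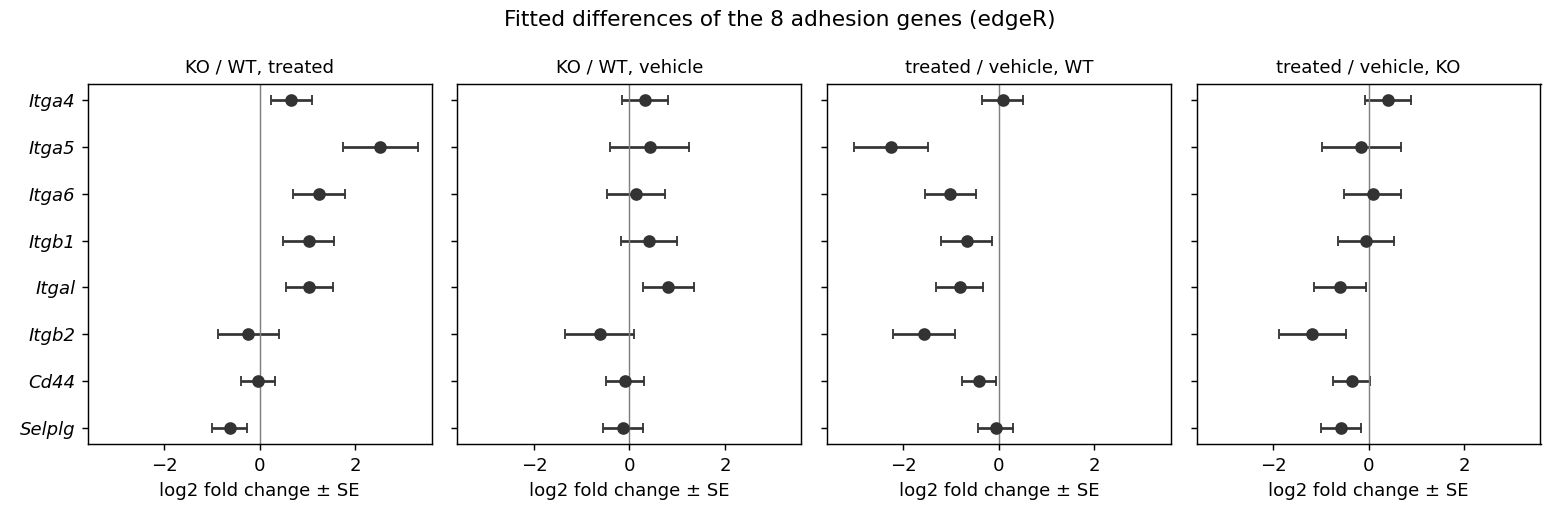
Log2 fold changes with their SE for the 8 genes in the KO over WT and treated over vehicle comparisons. Itga5 stood at 2.52 for KO over WT in treated hosts and at -2.26 for treated over vehicle in WT hosts, comparisons that share the WT treated libraries.

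Whether the drug difference depended on host genotype was tested as an interaction. By edgeR 0 of the 8 genes were called, against 0% of all genes, and 0 of 8 had an unadjusted p under 0.05, against 6.31% of all genes. DESeq2 called 0 of the 8, against 0.369% of genes, and limma voom 0, against 0%. Itga5 had the largest estimate, 2.10 ± 1.15 on the log2 scale (SE; edgeR adjusted p = 0.77), but -0.36 without libraries 253 and 265. Itga6 had 1.11 ± 0.81, Itgb1 0.62 ± 0.79 and Selplg -0.50 ± 0.56, and these 3 kept their sign in all 19 alternatives. Itgb2, Itga4, Itgal and Cd44 lay between 0.06 and 0.38. The differences seen in treated and in vehicle hosts were thus not shown to differ from each other.

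The adhesion machinery around the 8 genes was read from 145 further names, of which 144 matched and 129 were tested. None was called by edgeR with all libraries and the main filter in any of the 5 comparisons. In KO against WT treated hosts, DESeq2 called 4, all higher, against 3.15% of the genes it gave an adjusted p. Limma voom called 31 higher and 15 lower, against 26.3% of all genes, and edgeR with no filter called 1, higher. Without library 257, edgeR called 13 higher and 3 lower of 126, against 9.26% of all genes. Once the length trend was removed as well, none was called, against 0.165%. In WT hosts under treatment, DESeq2 called 1 higher and 12 lower, against 7.84% of the genes it gave an adjusted p. EdgeR with no filter called 0 higher and 5 lower, and limma voom called none, against 0%. Without library 240, edgeR called 2 higher and 2 lower of 128, against 190 of all genes. With vehicle, DESeq2 called 1 gene, against 1.59% of the genes it gave an adjusted p. EdgeR without 240 also called 1, against 85 of all genes, and each was higher in KO. The counts over all genes with no filter are given in the section on processing. In KO against WT treated hosts, 19 of 129 (14.7%) had an unadjusted p under 0.05 and were higher, beside 7.13% of all genes, and 7 (5.43%) were lower, beside 3.5%. Integrin activation and linkage gave 5 higher and 2 lower of 26. Among these, Pxn, which encodes the focal adhesion adaptor paxillin, was at 32.3, 79.1 and 90.9 CPM in KO treated libraries and at 24.3, 21.9 and 27.8 CPM in WT treated libraries. Its log2 fold change was 1.45 ± 0.39 (SE; edgeR adjusted p = 0.383). Tln1, the talin that switches integrins on, had 1.26 ± 0.35, and Actn4, an actin crosslinker, had 1.41 ± 0.41 (edgeR adjusted p = 0.383 each). All KO treated libraries were above all WT treated ones for Pxn, Tln1 and Actn4, against 9.71% of all genes. They are named for the smallest unadjusted p of their list in this comparison, so such a gap goes with the choice. Actn4 was at 0.92 without 276.

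The other lists were smaller. At the same unadjusted p under 0.05, 7.13% of all genes were higher and 3.5% lower. A count of 1 higher in a list of 11, 12 or 20 genes is near that share. Cd44 partners and hyaluronan genes gave 4 higher and 0 lower of 12. Among them were Nf2, which encodes merlin (1.72 ± 0.49), and Rdx, which encodes the membrane linker radixin (0.71 ± 0.26). Ank1 was also among the 4, with a larger log2 fold change and a larger SE than Nf2 and Rdx. Its unadjusted p lay between theirs. Whether the higher erythroid markers of the KO treated libraries bear on Ank1 was not tested. Adhesion shedding proteases and inhibitors gave 3 higher and 1 lower of 17, with Adam10, which cleaves CD44, at 47.2, 192 and 292 CPM for KO treated and 51.9, 45.99 and 37.3 CPM for WT treated libraries. Library 257 was again within the range of the WT treated group, and without 276 the log2 fold change of Adam10 was 1.33, against 1.97 with all libraries. Selectin ligand glycan synthesis gave 2 higher and 0 lower of 15, B4galt1 (1.01 ± 0.40) and Galnt1 (1.10 ± 0.46). Both rested on library 276, with 0.34 for B4galt1 and 0.57 for Galnt1 without it. Selectins and selectin ligand carriers gave 1 higher and 0 lower of 11, other alpha integrins 1 and 0 of 11, other beta integrins 1 and 0 of 5, and integrin ligands 1 and 1 of 12. Tetraspanins and other retention genes gave 1 higher and 3 lower of 20. The 3 were the tetraspanins Cd9 (-1.75 ± 0.55) and Cd63 (-1.46 ± 0.49) and the GTPase gene Rac2 (-1.17 ± 0.41), with edgeR adjusted p of 0.405 to 0.432. Without WT treated library 266, Cd63 was at -0.84 and Rac2 at -0.68.

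In WT hosts, treated against vehicle gave 21 of 129 (16.3%) lower at an unadjusted p under 0.05, beside 8.11% of all genes, and 9 (6.98%) higher, beside 10.1%. Itgb5, a beta chain that pairs with alpha V, was at 6.59, 8.59 and 5.32 CPM in WT treated libraries and at 33.6, 35.8 and 35.5 CPM in WT vehicle libraries. Its log2 fold change was -2.35 ± 0.51 (SE; edgeR adjusted p = 0.172). The groups did not overlap, with treated lower, against 10.1% of all genes, and libraries 253, 265 and 240 were alike for Itgb5. Itgb5 is named because it had the smallest unadjusted p of its list in this comparison, so such a gap goes with the choice. Integrin activation and linkage gave 1 higher and 7 lower of 26, led by Sipa1, an inhibitor of the integrin activator Rap1 (-2.25 ± 0.41), Actn4 (-1.95 ± 0.42) and Pxn (-1.84 ± 0.40). Selectin ligand glycan synthesis gave 0 higher and 4 lower of 15. Fut4, a fucosyltransferase that helps build selectin ligands, was at 5.82, 4.27 and 3.61 CPM in WT treated libraries, against 25.7, 14.6 and 30.2 CPM in WT vehicle libraries. Cd44 partners and hyaluronan genes gave 1 higher and 4 lower of 12, among them Msn, which encodes moesin (-1.51 ± 0.48). The edgeR adjusted p of the genes named here was 0.172 to 0.179. With vehicle, KO against WT gave 8 higher (6.2%) and 2 lower (1.55%) of the 129, beside 4.8% and 1.98% of all genes. In KO hosts, treated against vehicle gave 4 higher and 4 lower (3.1% each), beside 2.7% and 0.974%. The interaction gave 7 higher (5.43%) and 4 lower (3.1%), beside 3.04% and 3.27%. Since both main comparisons share the WT treated libraries, their values are not separate evidence.

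Genes whose log2 CPM ran most like that of each of the 8 were sought among 8108 genes over the 11 libraries. Itgb1 ran closest to Adam17, which encodes a protease that sheds L-selectin (r = 0.98), and Itga6 to Slc45a4 (r = 0.98). Itgal was nearest to Bcl2l13 (r = 0.97), Itga5 to Gatad2a (r = 0.96), Itgb2 to Mtm1 (r = 0.96), Cd44 to Pisd (r = 0.96), Selplg to Stx7 (r = 0.94) and Itga4 to Ubr1 and Dennd4a (r = 0.89 each). Among Itga4, Itga5, Itga6, Itgb1 and Itgal, the 10 pairs had r of 0.33 to 0.84. The libraries fall into the same 4 groups and differ in depth and in their trend with length, and r is given with no test.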

How the data were processed

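RNA was extracted from sorted cells with a RNeasy Plus Micro kit, amplified with the SMARTer Ultra Low Input v4 kit and made into Nextera XT libraries, per the labels' protocols. The deposited table holds raw counts per Ensembl gene, not normalized, as its whole-number values show. The submitters' processing notes name build GRCm39, STAR 2.7.9a, HTSeq with version 0.6.7, Trim Galore 0.6.7, DESeq2 and bcl2fastq, with no roles. The strand setting and annotation release are not given in the sources used here. HTSeq summary lines held 24.3% to 62.8% of the reads in the table and were left out of library sizes and tests.

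Ensembl IDs without their version were matched to a list of gene names, which gave symbols for 52093 genes. They were also matched to GENCODE vM21 (GRCm38), which gave exon lengths for 52147. Only lengths, chromosomes and exon overlaps, with the gene names used for the overlaps, were taken from GENCODE vM21. Promoters came from RefSeq on GRCm38.p6, a build other than that of the counts. In R 4.3.3, edgeR 4.0.16 kept 16639 genes with filterByExpr, scaled libraries by TMM and fitted the 4 groups in 1 quasi-likelihood model with the robust option, with contrasts for each comparison and the interaction. The biological coefficient of variation was 0.783. The threshold for a call was 0.05 on two-sided p-values adjusted by Benjamini-Hochberg over all genes tested. SE is the log2 fold change divided by the root of F. Log2 CPM used a prior count of 2. The code was tested on simulated data. No 2 libraries were alike enough to be 1 library deposited again.

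The 8 genes, the gene lists and the tests were chosen with earlier results of these data known. Named in the text are the 8 genes, some of up to 3 genes per adhesion list and comparison with the smallest unadjusted p, and for each of the 8 the most similar genes by Pearson's r among genes with a mean log2 CPM of at least 3. Alternatives were DESeq2 1.42.0 size factors and Wald test, limma 3.58.1 voom with quality weights, no filter, a mean CPM of at least 10, the length trend removed by lowess (span 0.3), a fit on only the libraries compared, and leaving out libraries.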

Additional observations from a re-analysis of the deposited data

How the results depend on the processing

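In treated hosts, KO against WT gave 0 called genes by edgeR, against 43 with no filter, 249 by DESeq2, 4375 by limma voom, 1513 without library 257, and 27 without 257 and with the length trend removed (chosen after seeing the data). Of the 8 genes it called 0, against 1 by DESeq2, 5 by limma voom and 0 to 3 with 1 library left out. For KO against WT with vehicle, 11 genes were called with no filter, 224 by DESeq2, and 0 to 85 with 1 library left out. For treated against vehicle in WT hosts, 215 were called with no filter, 1106 by DESeq2 (1 of the 8 genes), and 0 to 190 with 1 library left out (190 without 240). In KO hosts DESeq2 called 23, and for the interaction 58, against 0 to 1 with 1 library left out. Limma voom called none outside treated KO against WT.

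Some signs turned. With limma voom, KO over WT was 0.34 for Itgb2 and 0.054 for Cd44 in treated hosts and 0.079 for Cd44 with vehicle, treated over vehicle was -0.12 for Itga4 and 0.07 for Selplg in WT and 0.10 for Itga5 and 0.18 for Itgb1 in KO hosts, and the interaction was -0.025 for Cd44. With the length trend removed, KO over WT with vehicle was -0.13 for Itga5, -0.22 for Itga6 and -0.0029 for Itgb1, treated over vehicle in KO hosts was -0.12 for Itga6, and the interaction was -0.0395 for Itga4. That setting moved the median of all genes to 0.03 for KO over WT in treated hosts, -0.33 with vehicle, and -0.27 for treated over vehicle in WT hosts. Without both 253 and 265, KO over WT with vehicle was -0.10 for Itga4 and 0.20 for Cd44, treated over vehicle in WT hosts was -0.36 for Itga4 and 0.16 for Itga5, and the interaction was -0.36 for Itga5, -0.24 for Itgb2 and -0.26 for Cd44. Without 257 and with the trend removed, KO over WT in treated hosts was 0.14 for Itgb2, and treated over vehicle in KO hosts was 0.16 for Itga5 and 0.27 for Itgb1. The cause was not tested.

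With 1 library left out at a time, the ranges that crossed 0 were as follows. KO over WT in treated hosts ran from -0.62 to 0.19 for Itgb2 and -0.36 to 0.24 for Cd44. With vehicle it ran from -0.064 to 1.03 for Itga5, -0.077 to 0.65 for Itga6, -1.39 to 0.27 for Itgb2, -0.27 to 0.20 for Cd44 and -0.48 to 0.18 for Selplg. Treated over vehicle in WT hosts ran from -0.28 to 0.45 for Itga4 and -0.38 to 0.17 for Selplg. In KO hosts it ran from -0.028 to 0.71 for Itga4, -0.61 to 0.27 for Itga5, -0.44 to 0.53 for Itga6 and -0.46 to 0.34 for Itgb1. The interaction ran from -0.12 to 0.68 for Itga4, -0.28 to 0.66 for Itgal, -0.51 to 1.08 for Itgb2 and -0.26 to 0.33 for Cd44.

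No paired analysis was possible because the groups share no replicate numbers. Where 1 library was left to stand for a group, it is assumed to vary like the other groups. The length correction also removes differences that go with length for any other reason.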
